A study of Rattus norvegicus with 4 samples.

Results

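The nuclear-encoded subunits of the respiratory chain and of ATP synthase were followed in cells from day 4 skin wounds of rats. They were chosen by symbol, as every entry of the feature table that starts with Nduf, Uqcr, Atp5, Cox4, Cox5, Cox6, Cox7 or Cox8, which gave 94 of 23999 entries under 90 symbols. Uqcrb, Cox6b1, Ndufa10l1 and Ndufv3 each stood on 2 entries, and reads of near-identical copies may be divided between them. The 94 entries held 38 for complex I, 8 for assembly factors of complex I, 9 for complex III, 20 for complex IV and 16 for ATP synthase. The remaining 3 were Atp5if1, an inhibitor of ATP synthase, Cox7a2l, an assembly factor of supercomplexes, and Cox6c-ps1, a pseudogene by its symbol. The prefixes leave out complex II, cytochrome c1 and cytochrome c, which were counted as separate lists. In kept cells 1 entry, Cox7b2, had no UMI (unique molecular identifier, 1 counted RNA molecule), and 13 entries had under 1000 UMIs.

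The respiratory chain of the inner mitochondrial membrane passes electrons from NADH through complex I, and from succinate through complex II, to complex III and on to complex IV, where oxygen is reduced. Complexes I, III and IV pump protons, and ATP synthase uses the resulting gradient to make ATP. A small set of core subunits is encoded in the mitochondrial genome and all the others in the nucleus, so each of these complexes is built from both genomes, while complex II is wholly nuclear.

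The study set wounds injected with purified migrasomes, vesicles that migrating cells leave on their retraction fibres, against wounds that the labels call uninjected. It had 2 libraries in each group, in which single-cell RNA was captured in 10x droplets and sequenced, and the effect of an injection as such cannot be told apart from that of migrasomes. The labels do not tie the replicates to separate animals, so p-values measure the spread between libraries, which may be technical. The tissue was digested with enzymes, strained and freed of red cells before capture, and the labels give no gate or sort. The libraries held 98444851 and 75823418 UMIs in the injected group, against 82112943 and 105605297 UMIs in the uninjected group. After filtering, 9837 and 6058 injected cells and 9060 and 8712 uninjected cells were kept, with medians of 3407 and 7872 UMIs per injected cell, against 1936.5 and 4948 UMIs per uninjected cell. Pairs of libraries shared 17 to 38 called cell barcodes.

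Cells were gated by marker genes, none of which was a respiratory chain gene, and a class name below stands for the cells that passed its gate. No gate was passed by 3650 and 1746 kept cells of the injected libraries, and by 2973 and 2580 of the uninjected ones. These ungated cells are in no class, so class values do not cover all kept cells. By clustering, 5304 of them fell in neutrophil clusters and 2129 in keratinocyte clusters. In each library their member share of UMIs lay above that of gated neutrophils and below that of gated keratinocytes. A gate asks for 2 or more markers of its class, so that the markers' presence is partly set by the gate. Those seen most often were Krt17 in 99.97% of keratinocytes, Col1a1 in 97.9% of fibroblasts, G0s2 in 91.7% of neutrophils, Cd68 in 88.1% of macrophages and Plvap in 75.5% of endothelial cells. The macrophage and neutrophil gates also held markers in few cells, with C1qa in 10.0%, C1qb in 8.98%, Cd163 in 5.77% and Adgre1 in 29.1% of macrophages, and Retnlg in 13.0%, Cxcr2 in 6.59%, Mmp8 in 20.2% and Ngp in 0.459% of neutrophils. Markers were less frequent in the dendritic class, where the most frequent was Ccr7 in 55.5%, and in the class of T and NK cells, where it was Skap1 in 59.7%. Dendritic cells held Flt3 in 25.3%, Cd207 in 17.5%, Batf3 in 7.5% and Xcr1 in 3.67%. T and NK cells held Cd3e in 31.1%, Cd3g in 24.8%, Cd3d in 23.6%, Cd7 in 16.4% and Ncr1 in 11.5%. Of the 8 classes tested, the thinnest was the macrophage class, with 52 cells in uninjected 1. Mural cells, the pericytes and smooth muscle of vessels, numbered 75 and 19 in injected libraries, against 78 and 36 in uninjected ones, and skeletal muscle cells numbered 60 and 6 in injected libraries, against 27 and 34 in uninjected ones. Those 2 classes were described with no test. The library uninjected 1 stood apart from the other 3 in the members, so the injection results that rest on it are also given without it.

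Promoter sequences were looked up for the members in a RefSeq table of the GRCr8 rat assembly, which held 77 of the 90 symbols, and the 250 bases before the annotated start were searched on both strands. Nuclear respiratory factor 1 (NRF1) is known as a regulator of many respiratory genes, and the core letters of its motif (GCGCA, any base, then GCGC) were found in 12 of the 77 promoters (15.6%), against 1145 of the 27457 promoters of the whole table (4.17%). The 12 were those of Atp5mc2, Atp5me, Atp5po, Ndufa5, Ndufa11, Ndufa12, Ndufs5, Ndufs6, Ndufv3, Ndufaf4, Ndufaf5 and Uqcrc1. The ETS letters CCGGAAG, shared by the GABP factor, were in 18 member promoters (23.4%), against 7.74% of all promoters. The YY1 letters (AAGATG followed by GCGG) were in 1 member promoter (1.30%), against 0.382% of all, and the CRE letters TGACGTCA in 2 (2.60%), against 1.70% of all. The searched motifs share no stretch that makes one contain another, though their matches can overlap in a promoter. A match is a description of letters and no site of binding. A promoter from each of 4 roles is shown with the NRF1 core in capitals. Each is that of the gene with the most UMIs in kept cells among the 12 of its role. Ndufa5 is an accessory subunit of complex I and Uqcrc1 a core subunit of complex III. Atp5mc2 is a source of the c ring of ATP synthase, and Ndufaf5 an assembly factor of complex I. They lie on GRCr8 at chr4:53971236-53971485 (minus strand), chr8:118467973-118468222 (plus), chr7:135678219-135678468 (minus) and chr3:147961362-147961611 (plus).
Ndufa5: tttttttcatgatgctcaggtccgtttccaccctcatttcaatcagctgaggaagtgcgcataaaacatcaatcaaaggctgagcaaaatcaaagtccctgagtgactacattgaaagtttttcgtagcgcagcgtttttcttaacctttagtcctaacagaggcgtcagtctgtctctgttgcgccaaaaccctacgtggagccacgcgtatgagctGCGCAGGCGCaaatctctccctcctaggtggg
Uqcrc1: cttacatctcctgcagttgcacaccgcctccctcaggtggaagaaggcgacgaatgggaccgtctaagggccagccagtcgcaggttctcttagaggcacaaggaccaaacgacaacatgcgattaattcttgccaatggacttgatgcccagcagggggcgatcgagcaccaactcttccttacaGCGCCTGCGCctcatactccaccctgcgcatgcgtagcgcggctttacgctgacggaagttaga
Atp5mc2: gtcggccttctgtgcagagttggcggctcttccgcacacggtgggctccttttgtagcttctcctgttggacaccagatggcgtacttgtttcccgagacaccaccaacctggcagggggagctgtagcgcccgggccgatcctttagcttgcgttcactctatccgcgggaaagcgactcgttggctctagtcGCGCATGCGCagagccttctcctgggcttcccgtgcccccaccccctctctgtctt
Ndufaf5: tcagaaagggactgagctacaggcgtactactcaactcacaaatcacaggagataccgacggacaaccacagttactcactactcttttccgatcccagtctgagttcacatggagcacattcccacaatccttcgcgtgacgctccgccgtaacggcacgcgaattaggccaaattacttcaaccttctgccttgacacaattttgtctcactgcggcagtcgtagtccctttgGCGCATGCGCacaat

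The members took a larger share of UMIs in keratinocytes than in the mean of the other tested classes in each of the 4 libraries, and a smaller share in neutrophils in each. In keratinocytes the share was 1.03% and 1.23% in injected 1 and 2, against 2.58% and 1.22% in uninjected 1 and 2. In neutrophils it was 0.166% and 0.186% in the injected libraries, against 0.696% and 0.156% in the uninjected ones. In fibroblasts it was 0.862% and 0.971% in the injected libraries, against 2.17% and 1.09% in the uninjected ones. In every class of the plot of member shares uninjected 1 was the highest library, and the other 3 lay close together. The keratinocyte share was 1.48 to 1.67 times the mean of the other classes in the same library, a mean difference of 0.522 percentage points. The neutrophil share was 0.176 to 0.346 times it, a difference of -0.864 points. Fibroblasts were higher in 4 of 4 libraries by a mean of 0.248 points, endothelial cells in 4 of 4 by 0.270 points, and dendritic cells were lower in 4 of 4, with a difference of -0.270 points. The exact two-sided test over 4 pairs gave p = 0.125 for each of these 5 classes, which is the smallest it can give. Macrophages (difference -0.0618 points, p = 0.5, exact test), T and NK cells (-0.0907 points, p = 0.875, exact test) and mast cells (0.246 points, p = 0.625, exact test) were higher in 2 of 4 libraries each.

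**Figure D1:**
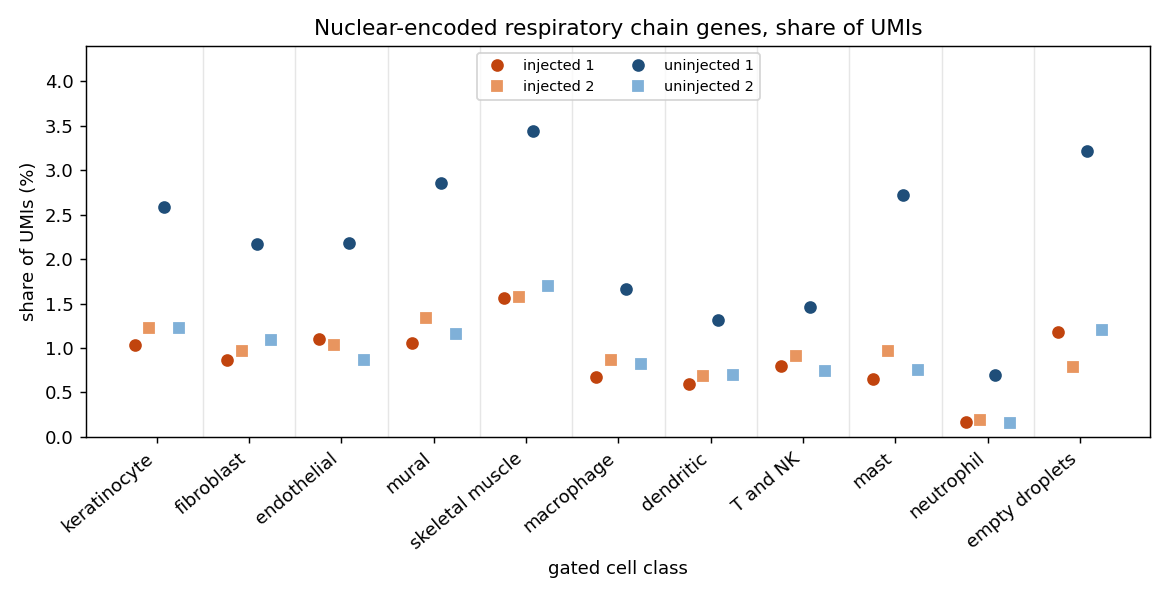
Share of UMIs (%, vertical axis) taken by the 94 member entries in each gated cell class and in empty droplets (horizontal axis), with 1 point per library, injected in orange and uninjected in blue. Uninjected 1 is the highest library in every class, at 0.696% in neutrophils and 2.58% in keratinocytes, and neutrophils are the lowest class in each library.

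The largest share in each library was in skeletal muscle, at 1.56% and 1.57% in the injected libraries, against 3.44% and 1.70% in the uninjected ones. That class held Cdh15 in 81.9%, Myod1 in 79.5%, Myf5 in 42.5% and Myog in 31.5% of its cells, and was not shown to be muscle fibres. Mural cells had 1.06% and 1.33% in the injected libraries, against 2.86% and 1.16% in the uninjected libraries. Counting error was small beside the spread between libraries: in the 55 mast cells of uninjected 1 the 95% Wilson interval of the share of 2.72% ran from 2.63% to 2.81%, and it covers counting error only. Free RNA from broken cells was present in all droplets, and empty droplets held members at 1.18% and 0.789% of UMIs in the injected libraries, against 3.22% and 1.20% in the uninjected ones. Read from markers that a class should lack, free RNA could account for at most 49.7% and 21.3% of the member UMIs of neutrophils in the injected libraries, against 70.7% and 40.1% in the uninjected ones. The same bound was at most 6.82% in keratinocytes and 2.40% in fibroblasts, and reached 38.5% in the dendritic class of uninjected 1.

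The mitochondrial-genome genes, 13 protein-coding genes in these files, gave the same order for keratinocytes and neutrophils but not for uninjected 1. In keratinocytes they took 5.35% and 4.35% of UMIs in the injected libraries, against 3.05% and 5.76% in the uninjected ones. In neutrophils they took 0.932% and 0.883% in the injected libraries, against 1.16% and 0.885% in the uninjected ones. Keratinocytes lay above the mean of the other classes in 4 of 4 libraries (mean difference 1.20 points) and neutrophils below it in 4 of 4 (-2.99 points), each with p = 0.125 in the exact two-sided test. Macrophages (0.326 points) and endothelial cells (0.607 points) were also higher in 4 of 4. Uninjected 1 was the lowest library in 9 of the 10 classes and the highest in neutrophils, so its members per 100 mitochondrial-genome UMIs stood out most. That ratio was 19.2 and 28.2 in keratinocytes of the injected libraries, against 84.6 and 21.2 in those of the uninjected libraries. In neutrophils it was 17.8 and 21.1 in the injected libraries, against 60.1 and 17.6 in the uninjected ones.

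**Figure D2:**
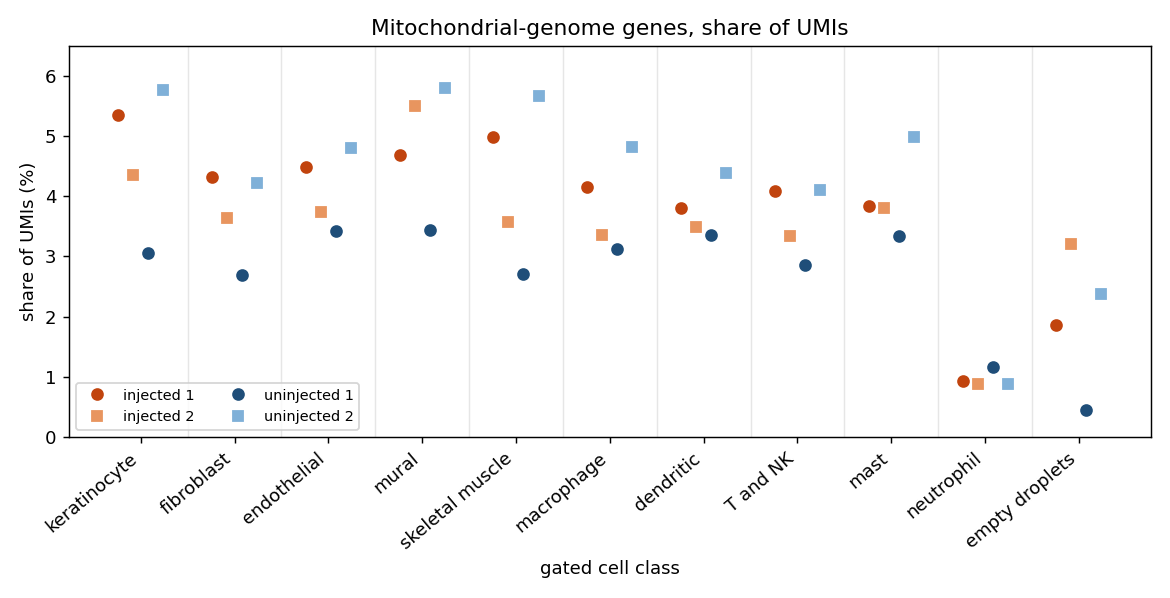
Share of UMIs (%, vertical axis) taken by the 13 mitochondrial-genome genes in each gated class and in empty droplets (horizontal axis), with 1 point per library, injected in orange and uninjected in blue. Neutrophils lie between 0.883% and 1.16%, and uninjected 1 is the lowest library in keratinocytes at 3.05%.

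Gene by gene and with gated classes, most members were higher in keratinocytes and in fibroblasts than in the other classes, and most were lower in neutrophils. Most were also lower in dendritic cells and in T and NK cells, but only with the TMM scaling described next. UMIs were summed per class and library, and each class was compared with the mean of the other 7 by the quasi-likelihood test of edgeR with the library as a block, with TMM scaling (a factor that sets the bulk of genes equal) and with p-values adjusted over all 11876 genes tested. Of the 83 member entries that passed the filter on low counts, 73 were higher in keratinocytes at an adjusted p under 0.05, where 36.9% of all genes were higher, and 2 were lower, where 26.1% were lower. In fibroblasts 61 were higher (39.9% of all genes) and 1 was lower (27.8%). With classes taken from clusters, a smaller share of members than of all genes was called in fibroblasts, with the counts given in the last section. In neutrophils 49 were lower (26.1% of all genes) and 7 higher (31%), and in dendritic cells 48 were lower (21.2%) and 4 higher (21%). Macrophages had 32 higher (21.5%) and 1 lower (18.9%), and endothelial cells 10 higher (21.2%) and 2 lower (13.3%), so that the endothelial shares lay at or under the background. T and NK cells had 45 lower (26.5%) and 4 higher (28.7%), and mast cells 16 lower (15.6%) and 1 higher (13.1%). With plain UMI totals in place of TMM, an alternative chosen after seeing the data, all genes of a class moved together, and the counts were 19 higher (49% of all genes) and 4 lower (13.7%) in T and NK cells and 25 higher (25.8%) and 0 lower (5.7%) in mast cells. With UMI totals endothelial cells had 57 higher (46.3%) and 2 lower (6.16%), and dendritic cells 5 higher (24.6%) and 28 lower (15.1%). Macrophages had 16 higher (16.8%) and 3 lower (27%) on that scale. Leaving out 1 library moved the number called in macrophages to 50 (without uninjected 1, where 40.8% of all genes were called), 16 (without uninjected 2, 30.2%) or 15 (without injected 2, 28.1%). In endothelial cells it moved to 22 (without uninjected 1, 34.9%) or 3 (without injected 1, 20.4%), and in mast cells to 9 (without uninjected 2, 20.8%) or 5 (without injected 1, 20.6%).

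Because a scaling moves every gene of a class together, the members' median was set beside that of all genes tested. On the log2 scale the member median was 0.69 in keratinocytes, where that of all genes was 0.12, and 0.54 in fibroblasts, where that of all genes was 0.16. It was -0.55 in neutrophils (all genes -0.04), -0.57 in dendritic cells (all genes -0.14), -0.47 in T and NK cells (all genes -0.02) and 0.29 in macrophages (all genes -0.09). In endothelial and mast cells the member and all-gene medians lay within 0.05 of each other. With UMI totals the neutrophil counts were 78 lower and 2 higher, where 68.1% of all genes were lower and 11.5% higher, and the medians were -2.19 for the members and -1.70 for all genes. The distance between both medians was -0.51 with TMM and -0.49 with UMI totals in neutrophils, and 0.57 and 0.56 in keratinocytes. In T and NK cells it was -0.44 and -0.47, while the median of all genes stood at -0.02 with TMM and 0.55 with UMI totals, and in mast cells it was 0.04 and 0.01. The counts of T and NK cells and of mast cells thus turned with the scale of all genes, and the members' place relative to other genes moved by about 0.03.

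**Figure D3:**
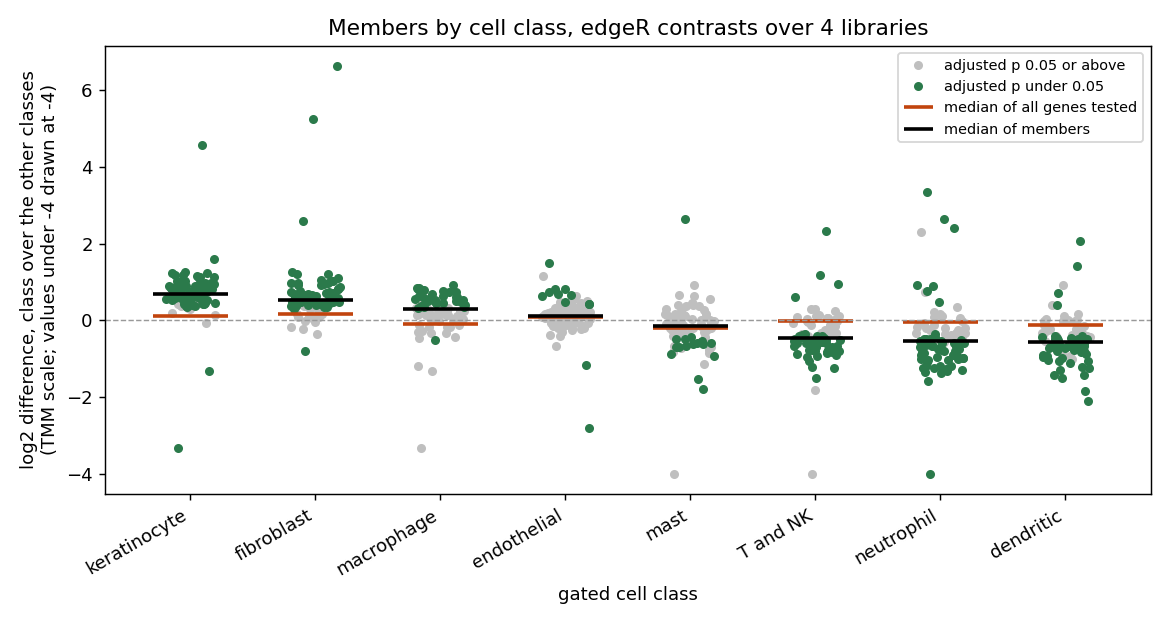
Log2 difference of each class over the other 7 (vertical axis, TMM scale) for the 83 member entries tested, by gated class (horizontal axis), from edgeR over 4 libraries. Green points passed an adjusted p of 0.05, black bars are member medians and orange bars the medians of all genes tested. Points lie mostly above 0 in keratinocytes (73 higher) and fibroblasts (61 higher) and mostly below 0 in neutrophils (49 lower) and dendritic cells (48 lower).

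Complex I, the NADH dehydrogenase at the entry of the chain, had 30 of its 34 tested entries higher in keratinocytes and 27 higher in fibroblasts, with 0 lower in either. In dendritic cells 23 of the 34 were lower and 0 higher (15 and 0 with UMI totals), and in neutrophils 23 were lower and 3 higher (34 and 0 with UMI totals). Ndufa8, an accessory subunit, had 18.4 and 14.9 counts per 1000000 UMIs of the class (CPM) in dendritic cells of the injected libraries, against 12.8 and 24.3 CPM in those of the uninjected libraries. In the pooled other classes it had 74.8 and 85.4 CPM in the injected libraries, against 97.3 and 80.3 CPM in the uninjected ones, so no dendritic value reached that of the other classes. Its log2 difference in dendritic cells was -2.10 (SE 0.24, adjusted p = 2.55e-08, edgeR). Ndufb4 (-1.85) and the core subunit Ndufs3 (-1.50) were also lower in dendritic cells, though Ndufb4 had 6 to 11 and Ndufs3 3 to 35 UMIs per library there. Macrophages had 13 of 34 higher and 0 lower (8 and 0 with UMI totals), where 21.5% of all genes were higher (16.8% with UMI totals). Among them were Ndufb10 (log2 0.84), Ndufa13 (0.81) and Ndufa9 (0.79), with 15, 43 and 8 UMIs in uninjected 1. In macrophages Ndufa9 had 88.7 and 112 CPM in the injected libraries, against 47.8 and 83.1 CPM in the uninjected ones. Fibroblasts had 88.3 and 97.7 CPM in the injected libraries, against 55.7 and 114 CPM in the uninjected ones, so macrophages exceeded them only in the injected libraries. In endothelial cells Ndufa8 (0.81) was higher, as was Ndufs5 (0.82), which missed the threshold without injected 1 (adjusted p = 0.0595, edgeR). In mast cells Ndufs8 (-0.93) was lower, but did not pass with UMI totals.

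Assembly factors of complex I did not move as a block. The highest class for Ndufaf5, known in human cells to hydroxylate a core subunit during assembly, was neutrophils or dendritic cells in each library. In neutrophils it had 54.1 and 51.4 CPM in the injected libraries, against 75.4 and 116 CPM in the uninjected ones. In dendritic cells it had 67.8 and 42.0 CPM in the injected libraries, against 132 and 75.3 CPM in the uninjected ones. In keratinocytes it had 15.1 and 12.9 CPM in the injected libraries, against 9.61 and 13.6 CPM in the uninjected ones, below every neutrophil and dendritic value, and macrophages had 52.1 and 17.4 CPM in the injected libraries, against 65.7 and 58.4 CPM in the uninjected ones. The log2 difference was 3.34 in neutrophils (SE 0.20, adjusted p = 2.98e-15, edgeR), 1.43 in dendritic cells and -1.33 in keratinocytes. By plain CPM against the pooled other classes, Ndufaf5 in neutrophils stood at 2.77 and 3.58 times their level in the injected libraries, against 6.85 and 6.25 times in the uninjected ones, and with UMI totals its log2 difference was 1.62. Ndufaf7, another assembly factor of the complex, was called higher in neutrophils (log2 2.42, SE 0.22, adjusted p = 8.07e-11, edgeR, and 0.76 with UMI totals), but by plain CPM it was 1.89 and 2.57 times the other classes in the injected libraries, against 1.74 and 0.742 times in the uninjected ones. Ndufaf4 was higher in T and NK cells (log2 1.17) and Ndufaf6 in endothelial cells (1.51). Without injected 1 the endothelial value of Ndufaf6 fell short of the threshold, at 0.61 with an adjusted p of 0.182 by edgeR.

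Complex III, which passes electrons from ubiquinol to cytochrome c, had 7 of 8 tested entries higher in keratinocytes, and 5 higher in fibroblasts, with 0 lower in each, while macrophages had 4 higher and 0 lower (2 and 1 with UMI totals). In neutrophils 6 of 8 were lower and 0 higher. The small subunit Uqcr11 had 35.4 and 45.0 CPM in T and NK cells of the injected libraries, against 120 and 32.0 CPM in those of the uninjected libraries. In keratinocytes it had 110 and 152 CPM in the injected libraries, against 495 and 151 CPM in the uninjected ones. Within each library T and NK cells were lower than keratinocytes for Uqcr11, but neutrophils were lower still. Neutrophils had 11.7 and 20.8 CPM in the injected libraries, against 112 and 8.52 CPM in the uninjected ones. On the TMM scale the log2 difference of T and NK cells from all other classes was -1.50 (SE 0.19, adjusted p = 1.39e-07, edgeR). Uqcrq, a small subunit of the same complex, was also lower in T and NK cells (-1.25), though neutrophils again had the lower CPM in each library.

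ATP synthase had 15 of 16 tested entries higher in keratinocytes and 14 higher in fibroblasts. In T and NK cells 12 of 16 were lower and 1 higher (1 and 3 with UMI totals, where all genes shift upward as above), and in dendritic cells 11 were lower and 2 higher (3 and 3 with UMI totals). In neutrophils 9 were lower and 0 higher. Atp5me, a membrane subunit of the dimer interface, had 125 and 178 CPM in keratinocytes of the injected libraries, against 587 and 180 CPM in those of the uninjected libraries. Its log2 difference in keratinocytes was 1.27 (SE 0.16, adjusted p = 3.04e-08, edgeR). Atp5f1c, the central stalk subunit, was lower in neutrophils (log2 -1.36), at 26.8 and 29.4 CPM in the injected libraries and 42.3 and 18.8 CPM in the uninjected ones. Atp5pb, a peripheral stalk subunit, was counted in only 584 UMIs in the other tested classes and in 0 UMIs of the 8687501 neutrophil UMIs. Taking 3 counts over all neutrophils as the floor, it was at least 7.07-fold lower in neutrophils than its 2.44 CPM in the other classes. Atp5pb was higher in T and NK cells (log2 2.34), at 3.94 and 5.30 times the pooled other classes in the injected libraries, against 2.80 and 6.09 times in the uninjected ones. That was 8.43 and 13.9 CPM in the injected libraries, against 4.55 (2 UMIs) and 13.5 CPM in the uninjected ones. Dendritic cells held Atp5pb at 8.24 and 4.67 CPM in the injected libraries, against 0 and 9.06 CPM in the uninjected ones. Atp5if1, which binds ATP synthase and blocks its reverse action, was higher in keratinocytes (log2 0.67) and macrophages (0.59).

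Complex IV, cytochrome c oxidase, had 14 of 15 tested entries higher in keratinocytes and 10 higher in fibroblasts. In neutrophils 8 were lower and 2 higher (12 and 0 with UMI totals), and in T and NK cells 9 were lower and 0 higher (0 and 3 with UMI totals, on the shifted scale of all genes). Cox4i1, the common form of subunit 4, had 71.9 and 96.8 CPM in neutrophils of the injected libraries, against 277 and 72.1 CPM in those of the uninjected libraries. Cox7c, a small structural subunit, had 9.52 and 7.35 CPM in neutrophils of the injected libraries, against 168 and 9.94 CPM in those of the uninjected libraries. In fibroblasts it had 142 and 145 CPM in the injected libraries, against 812 and 162 CPM in the uninjected ones. In each library the neutrophil value of Cox7c was the lower, and its log2 difference from all other classes was -1.58 (SE 0.22, adjusted p = 3.64e-07, edgeR). Cox6c was an exception in dendritic cells, where it was higher (log2 0.70, adjusted p = 0.000177, edgeR), at 302 and 339 CPM in the injected libraries and 1118 and 477 CPM in the uninjected ones.

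A pair of complex IV paralogues stood highest in mural cells and next in fibroblasts. Cox4i2 replaces Cox4i1 in part of the complex and is known for oxygen sensing in lung and carotid body, and Ndufa4l2 is a hypoxia-inducible relative of Ndufa4, a subunit of complex IV. In mural cells Cox4i2 had 299.6 and 689.8 CPM in the injected libraries, against 592.9 and 544.6 CPM in the uninjected ones. In fibroblasts it had 44.5 and 19.1 CPM in the injected libraries, against 53.0 and 30.0 CPM in the uninjected ones. In keratinocytes it had 0.206 and 0.103 CPM in the injected libraries, against 0.350 and 0.123 CPM in the uninjected ones, so the 3 classes did not overlap. Empty droplets held Cox4i2 at 34.9 and 2.88 CPM in the injected libraries, against 9.28 and 5.29 CPM in the uninjected ones. The other complex IV paralogue, Ndufa4l2, had 496.5 and 337.0 CPM in mural cells of the injected libraries, against 342.9 and 533.9 CPM in those of the uninjected libraries. In fibroblasts it had 73.1 and 45.0 CPM in the injected libraries, against 68.3 and 97.2 CPM in the uninjected ones. In keratinocytes it had 16.7 and 43.0 CPM in the injected libraries, against 11.1 and 25.5 CPM in the uninjected ones, and in T and NK cells and in mast cells it had 0 UMIs.

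**Figure D4:**
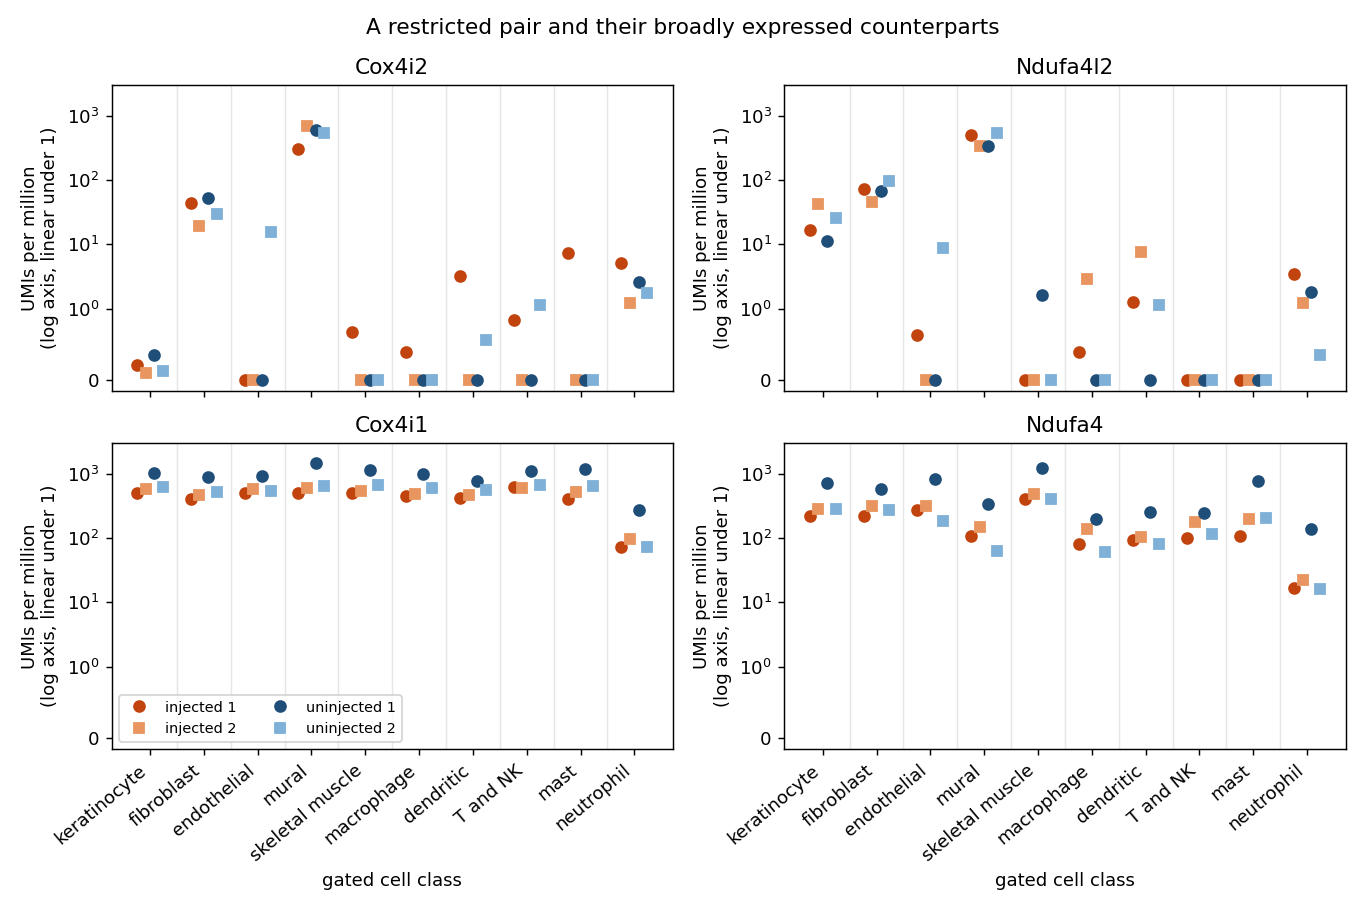
CPM (vertical axes, logarithmic above 1 and linear below) of Cox4i2, Ndufa4l2, Cox4i1 and Ndufa4 in each gated class (horizontal axes), with 1 point per library, injected in orange and uninjected in blue. Cox4i2 is highest in mural cells, at 299.6 to 689.8 CPM, and Cox4i1 is lowest in neutrophils.

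In fibroblasts Cox4i2 was 71.1 and 171 times its pooled level in the other tested classes in the injected libraries, against 111 and 51.7 times in the uninjected ones (log2 5.24, SE 0.38, adjusted p = 7.05e-13, edgeR). Ndufa4l2 was 5.81 and 1.19 times its pooled level in the injected libraries, against 6.71 and 4.54 times in the uninjected ones. Its fitted log2 difference of 6.63 in fibroblasts (SE 0.46, adjusted p = 2.07e-11, edgeR) and of 4.57 in keratinocytes weighs the 7 other classes equally, some of them at 0, and so depends on the prior count. By pooled CPM keratinocytes were under the other classes for Ndufa4l2 in 3 of 4 libraries, at 0.372 and 1.38 times in the injected libraries, against 0.270 and 0.417 times in the uninjected ones. Cox6b2, known as the testis form of subunit 6b, was also higher in fibroblasts (log2 2.60, adjusted p = 2.50e-09, edgeR), at 8.06 and 4.35 CPM in the injected libraries and 17.9 and 7.30 CPM in the uninjected ones. By pooled CPM that was 3.08 and 1.19 times the other classes in the injected libraries, against 2.34 and 2.04 times in the uninjected ones. Keratinocytes were called higher for Cox6b2 as well (log2 1.59, adjusted p = 2.89e-05, edgeR). Mural cells held Cox6b2 at 19.1 and 57.9 CPM in the injected libraries, against 81.1 and 24.1 CPM in the uninjected ones. Empty droplets held it at 6.40 and 0 CPM in the injected libraries, against 15.3 and 11.8 CPM in the uninjected ones. Read from keratinocyte markers, free RNA made up at most 1.63% and 1.70% of fibroblast UMIs in the injected libraries. The same bound was 1.62% and 1.15% in the uninjected ones. The part of free RNA in the fibroblast difference of Cox6b2 was not tested.

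Mural markers were measured beside the fibroblast values, since mural cells held far more of both paralogues. The 8 mural markers other than Pdgfrb summed to 60.8 and 51.1 CPM in fibroblasts of the injected libraries, against 32.0 and 31.0 CPM in those of the uninjected libraries. In mural cells the same sum was 2045 and 1490 CPM in the injected libraries, against 2232 and 2484 CPM in the uninjected ones. Rgs5, a defining pericyte gene, had 616 CPM in mural cells and 0.537 CPM in fibroblasts. In fibroblasts with no UMI of any of those 8 markers Cox4i2 stood at 34.3 and 8.63 CPM in the injected libraries, against 18.1 and 26.8 CPM in the uninjected ones. Ndufa4l2 stood at 54.2 and 28.6 CPM in the same cells of the injected libraries, against 41.5 and 86.8 CPM in those of the uninjected libraries. A Cox4i2 UMI was seen in 26.0% and 12.6% of fibroblasts of the injected libraries, against 16.9% and 23.7% of those of the uninjected libraries. In keratinocytes, where the gene was near 0 CPM, a Cox4i2 UMI was seen in 0.320% and 0.169% of cells of the injected libraries, against 0.449% and 0.240% of those of the uninjected libraries. Median depth was 21909 and 21289 UMIs in fibroblasts and 13515.5 and 14268 UMIs in keratinocytes of the injected libraries, and 15847 and 26476 UMIs in fibroblasts and 11700 and 17006.5 UMIs in keratinocytes of the uninjected libraries.

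The promoters of Ndufa4 and Ndufa4l2 are shown because the second gene is known as a target of hypoxia-inducible factor, whose core letters are ACGTG or GCGTG. They lie on GRCr8 at chr4:40975560-40975809 (minus strand) and chr7:65241919-65242168 (plus), and capitals mark either core on either strand. The letters ACGTG were in 20 of the 77 member promoters (26.0%), against 16.9% of all promoters, and GCGTG in 30 (39.0%), against 27.2% of all. These letters are short and common, and Ndufa4l2 had no match in its 250 bases, which says only that they are not in this window. Cox4i2 had no entry in the table.
Ndufa4: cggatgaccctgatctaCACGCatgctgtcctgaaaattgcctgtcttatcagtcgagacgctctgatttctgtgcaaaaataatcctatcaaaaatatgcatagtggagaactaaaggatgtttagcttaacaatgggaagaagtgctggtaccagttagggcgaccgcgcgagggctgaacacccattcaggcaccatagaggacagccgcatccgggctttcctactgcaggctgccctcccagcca
Ndufa4l2: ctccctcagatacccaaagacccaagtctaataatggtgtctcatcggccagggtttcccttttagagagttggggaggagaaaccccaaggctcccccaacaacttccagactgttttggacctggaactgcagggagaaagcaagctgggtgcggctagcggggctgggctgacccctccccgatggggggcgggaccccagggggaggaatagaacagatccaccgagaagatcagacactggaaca

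Other tissue forms were nearly unseen. Cox6a2, the form of heart and skeletal muscle, had 73 UMIs in muscle cells, at 7 and 4 in the injected libraries and 59 and 3 in the uninjected ones, and 0 to 27 in any other class. Cox8b, known from muscle and brown fat of rodents, had 7 UMIs in muscle cells and at most 2 elsewhere among the classes. Ndufa4 itself had 407 and 481 CPM in muscle cells of the injected libraries, against 1225 and 410 CPM in those of the uninjected libraries. In mural cells Ndufa4 had 106 and 147 CPM in the injected libraries, against 334 and 61.7 CPM in the uninjected ones, below muscle in each library.

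Uninjected 1 held more of most members than the other 3 libraries, but not of all, and the split ran through the complexes. For each gene of 1000 or more UMIs the log2 ratio of uninjected 1 to the mean of the other 3 libraries was taken in each of the 8 classes, and the median over classes was used. Of the 81 members measured, 64 lay above 0, where 39.4% of all 10337 such genes did, and 42 lay at 1 or more, where 6.69% of all did. The member median was 1.06 and that of all genes -0.13. With each other library in the place of uninjected 1, 0 members reached 1. By role, 16 of 34 in complex I reached 1 (median 0.88), 5 of 8 in complex III (1.51), 11 of 15 in complex IV (1.34), 8 of 15 in ATP synthase (1.17) and 1 of 7 assembly factors (0.14).

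Ndufb4, Ndufc1, Atp5md, Cox7c and Ndufs5 had the largest excess in uninjected 1. Ndufb4 of complex I had 187 CPM in keratinocytes of uninjected 1, against 26.0 CPM in uninjected 2 and 21.6 and 26.0 CPM in injected 1 and 2. Its median log2 ratio was 2.98, and that of Ndufc1 was 2.80, of Atp5md 2.64, of Cox7c 2.45 and of Ndufs5 2.38, and all 5 were higher in each of the 8 classes. The core subunits Ndufs7 and Ndufs8 of complex I had ratios of 0.59 and 0.38. Other members of the same complexes went the other way. Uqcrfs1, the Rieske iron-sulfur protein of complex III, had 113 CPM in keratinocytes of uninjected 1, against 245 CPM in uninjected 2 and 225 and 252 CPM in injected 1 and 2. Its median log2 ratio was -1.14, that of Uqcrc2 -1.09 and that of Uqcrc1 -0.80. In complex I the ratio was -0.98 for Ndufa9, an accessory subunit, and -0.65 for Ndufv1, the catalytic subunit that binds NADH. In ATP synthase it was -0.75 for Atp5f1a and for Atp5f1c and -0.43 for Atp5f1b, of the catalytic head with its stalk, but 2.23 for Atp5f1e, a small subunit of the same stalk. Cox7a2l had -0.77.

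**Figure D5:**
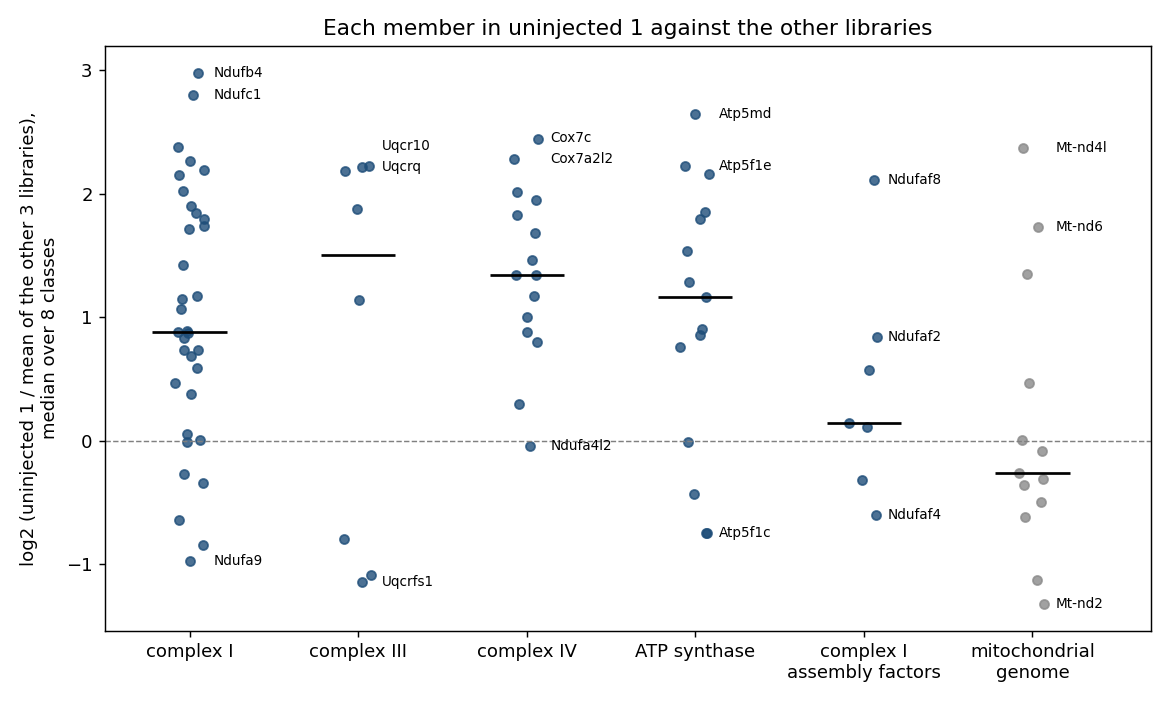
Log2 ratio of uninjected 1 to the mean of the other 3 libraries (vertical axis, median over 8 classes) for each member of 1000 or more UMIs and for the mitochondrial-genome genes, by role (horizontal axis), with bars at the medians. Within complexes I and III and ATP synthase the members divide, from 2.98 for Ndufb4 to -1.14 for Uqcrfs1.

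The mitochondrial-genome genes divided in the same library too. Mt-nd4l had a median log2 ratio of 2.37 and Mt-nd4 one of -0.26, although both are known to share an RNA, and Mt-atp8 had 1.35 and Mt-atp6 -0.61, which also share one. Mt-nd6 had 1.73, Mt-nd1 -1.13 and Mt-nd2 -1.32. Empty droplets showed the members much as cells did: over the 81 members the ratio in cells and that in empty droplets had a Pearson correlation of 0.963, a description across genes of the same 4 libraries. For the mitochondrial-genome genes they differed, with Mt-nd4l at -0.15 and Mt-nd2 at -3.60 in empty droplets. Genes of ribosomal proteins were high in the same library, at 4.61% of UMIs in neutrophils of uninjected 1, against 0.953% in uninjected 2 and 0.870% and 1.14% in injected 1 and 2. Their part in the excess, and that of transcript length or of RNA quality, was not tested.

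Between injected and uninjected wounds 0 members passed an adjusted p of 0.05 in any of the 8 classes (edgeR, 63 to 84 members tested per class), where 0.0378% of all genes passed in fibroblasts and 0% in each other class. At an unadjusted p under 0.05 there were 16 of 66 in neutrophils (7.09% of all genes), 7 of 84 in fibroblasts (9.87%), 5 of 84 in keratinocytes (4.08%), 4 of 78 in macrophages (4.13%), 4 of 74 in dendritic cells (3.93%), 3 of 63 in mast cells (4.20%), 1 of 79 in T and NK cells (6.36%) and 0 of 78 in endothelial cells (4.16%). DESeq2 called 3 in fibroblasts, where it called 1.06% of all genes, and 0 in each other class. The member medians lay between -0.44 in macrophages and -1.29 in neutrophils on the log2 scale, where all genes lay between -0.05 and 0.03. Without uninjected 1 they lay between -0.17 in keratinocytes and 0.29 in mast cells, with 1 member lower in neutrophils (3.11% of all genes called) and 0 members called in fibroblasts (2.16% of all genes), T and NK cells (2.74%), macrophages (0.174%), dendritic cells (0.0681%) and the other 3 classes (0%). Without uninjected 2 there were 57 lower calls in fibroblasts (5.81% of all genes), 53 in neutrophils (6.94%), 44 in keratinocytes (3.27%), 41 in mast cells (5.65%), 39 in T and NK cells (7.01%), 26 in dendritic cells (3.65%), 16 in macrophages (1.81%) and 0 in endothelial cells (0%), all against uninjected 1 alone. The same fits called 4 members higher in T and NK cells and 1 in neutrophils.

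The shares of UMIs were compared in the same way. In dendritic cells the members took 0.592% and 0.679% of UMIs in the injected libraries, against 1.32% and 0.693% in the uninjected ones. There, and in fibroblasts, the groups did not overlap, with differences of -0.369 and -0.715 points and p = 0.333 by the exact two-sided permutation test, the smallest that 2 libraries against 2 can give. Without uninjected 1 those differences were -0.0576 and -0.178 points, and those of keratinocytes and macrophages, where the groups overlapped, were -0.0920 and -0.0600 points. In the other 6 classes the groups overlapped, with differences of -0.241 to -0.931 points, each p from 0.667 to 1 by the same exact test. Of those 6, neutrophils, T and NK cells, endothelial cells and mast cells turned to 0.0203, 0.119, 0.207 and 0.0530 points without uninjected 1. The mitochondrial-genome share overlapped between the groups in all 8 classes, with differences of -0.336 to 0.520 points.

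The members with the smallest p in each class illustrate this. Cox7c had 108 and 131 CPM in macrophages of the injected libraries, against 681 and 170 CPM in those of the uninjected libraries, and the groups did not overlap, but uninjected 2 lay far nearer to the injected libraries than to uninjected 1. Its log2 change was -1.66 with an adjusted p of 0.968 by edgeR, and -0.35 (adjusted p = 0.996, edgeR) without uninjected 1. Ndufs5 in neutrophils rested on 7 and 1 UMIs in the injected libraries, against 178 and 14 UMIs in the uninjected ones (log2 change -3.69, adjusted p = 0.675, edgeR), and without uninjected 1 its log2 change was -1.17 (adjusted p = 0.790, edgeR). Ndufaf6, an assembly factor of complex I, had 6.70 and 11.1 CPM in fibroblasts of the injected libraries, against 16.2 and 20.6 CPM in those of the uninjected libraries. Both uninjected libraries were above both injected ones, and uninjected 2 was the highest, with a log2 change of -1.06 (SE 0.29, adjusted p = 0.338, edgeR), and -1.12 (adjusted p = 0.0756, edgeR) without uninjected 1. Atp5mc3, a source of the c ring, had 120 and 118 CPM in fibroblasts of the injected libraries, against 245 and 170 CPM in those of the uninjected libraries (log2 change -0.83, adjusted p = 0.444, edgeR), and its change was -0.40 (adjusted p = 0.531, edgeR) without uninjected 1.

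Some members ran higher in injected wounds without passing. In endothelial cells Ndufa9, an accessory subunit of complex I, had 108 and 93.3 CPM in the injected libraries, against 32.3 and 60.0 CPM in the uninjected ones. The groups did not overlap for Ndufa9, and its log2 change was 0.95 with an adjusted p of 0.893 by edgeR (0.63 and 0.933 without uninjected 1). In T and NK cells Ndufaf4 had 32.9 and 42.8 CPM in the injected libraries, against 9.09 and 23.0 CPM in the uninjected ones (log2 change 0.89, adjusted p = 0.706, edgeR, and 0.64 and 0.597 without uninjected 1). Both were also among the genes that read low in uninjected 1.

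A test of whether the injected-over-uninjected change differed among the 8 classes called 0 of 83 members, where it called 0% of all genes (edgeR interaction F test), and 5 members had an unadjusted p under 0.05, as had 6.75% of all genes. Without uninjected 1 it also called 0 members, where it called 0.00838% of all genes. The smallest p were those of Ndufb6 (0.00193, adjusted p = 0.417, edgeR), Cox4i2 (0.00791, adjusted p = 0.525, edgeR) and Ndufa4 (0.0152, adjusted p = 0.646, edgeR).

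Other mitochondrial genes were set beside the members, with the same class contrasts on the TMM scale. Of 12 tricarboxylic acid cycle enzymes, which feed the chain with NADH and succinate, 10 were higher and 0 lower in fibroblasts, led by Suclg1 (log2 1.14) and Dlst (1.12). In keratinocytes 9 were higher and 0 lower, and in neutrophils 9 were lower and 0 higher, among them Idh3b (-1.66) and Dld (-1.23). All 4 complex II subunits, which oxidise succinate, were lower in neutrophils, with Sdhb at -1.79, and 3 were higher in keratinocytes. Cyc1, the cytochrome c1 of complex III, was higher in keratinocytes (1.11) and fibroblasts (0.85) and lower in neutrophils (-0.94), and Cycs, the electron carrier cytochrome c, was higher in keratinocytes (0.77). Of 25 tested assembly factors outside the prefixes, 15 were higher in fibroblasts and 1 lower, while neutrophils had 8 lower and 2 higher, the copper chaperone Cox17 (2.14) and the complex III factor Bcs1l (1.92), but 23 lower and 1 higher with UMI totals. Of all genes 26.1% were lower and 31% higher in neutrophils with TMM, and 68.1% and 11.5% with UMI totals. With TMM 39.9% of all genes were higher and 27.8% lower in fibroblasts, and 36.9% higher and 26.1% lower in keratinocytes. In macrophages 21.5% were higher and 18.9% lower. Of the 13 mitochondrial-genome genes 10 were higher in keratinocytes, 11 in macrophages and 8 in fibroblasts with 0 lower in each (10, 7 and 9 with UMI totals). In neutrophils 10 were lower and 2 higher (13 and 0 with UMI totals). Of 9 tested regulators of respiratory genes 2 were higher and 2 lower in neutrophils, with Gabpb1, a partner of the ETS factor GABP, at 1.79, but 0 higher and 7 lower with UMI totals. Injected over uninjected, 0 genes of any of these lists passed an adjusted p of 0.05 in any class (edgeR).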

How the data were processed

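UMI counts per gene and barcode were deposited as whole numbers for all barcodes. Per the file headers, the authors made them with Cell Ranger 7.2.0, and version 5.0.1 is named in the submitters' processing notes. The build, the annotation and the strand setting were not given in the sources used here.

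Cells were called per library by depth or by departure from the profile of empty droplets (500 or more UMIs, false discovery rate 0.01), with 250 or more genes and up to 20% mitochondrial-genome UMIs, and doublets were removed with Scrublet (scanpy 1.11.5, Python 3.11.15). A cell joined a class with at least 2 of its markers and a score lead of 0.2. These gate thresholds were set after seeing cells per gate. Of the mast gate 85 cells fell in a T and NK cluster, and 502 of the 600 dendritic cells in clusters left unnamed. Classes with 50 or more cells in each library were summed and tested in R 4.3.3 with edgeR 4.0.16 (TMM, filterByExpr, robust quasi-likelihood), Benjamini-Hochberg adjusted over all genes. DESeq2 1.42.0 was an alternative. CPM divides by all UMIs of the class. Shares were compared by exact permutation tests. Ratios of uninjected 1 used a pseudocount of 0.5 UMIs. Scripts were tested on simulated data.

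The text names from these sets: the 3 members of smallest p per class for the injection, the 3 highest and 3 lowest called members of each class contrast with 1 direction in all 4 libraries, the paralogues, and the 5 highest and 5 lowest members in uninjected 1. A gene of these sets is not reported here. Further members shown for that library or as examples were picked with their values seen. Members and lists were chosen with earlier results of these data known. Replicate numbers did not pair the libraries: correlations of deviations ran from -0.164 to 0.340.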

Additional observations from a re-analysis of the deposited data

How the results depend on the processing

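Of 582 values recomputed for the comparisons, 526 kept their direction and stayed within the spread or within 1.5 times the count. The cause of each departure below was not tested. Replicate numbers come from the labels and only name the libraries. With the replicate block, and with the numbers crossed (chosen after seeing the data), 0 members were called between injected and uninjected wounds in every class, as with no block. Leaving out each library in turn, counts called between injected and uninjected wounds ran from 0 to 57 in fibroblasts, 0 to 54 in neutrophils, 0 to 44 in keratinocytes, 0 to 43 in T and NK cells, 0 to 41 in mast cells, 0 to 26 in dendritic cells and 0 to 16 in macrophages. A group left with 1 library is assumed to vary like the other. Between a class and the others the counts ran from 15 to 50 in macrophages, 3 to 22 in endothelial cells and 5 to 14 in mast cells. With no filter on low counts the injection called 22 members in neutrophils (1.27% of all genes), 7 in T and NK cells (1.06%), 1 in dendritic cells (0.292%) and 1 in endothelial cells (0.781%), and the interaction called 3 (3.04%). DESeq2 called 3 in fibroblasts (1.06%). With UMI totals (chosen after seeing the data) the class contrasts called 23 in T and NK cells (49% of all genes higher, 13.7% lower). They called 59 in endothelial cells (46.3% and 6.16%), 33 in dendritic cells (24.6% and 15.1%) and 19 in macrophages (16.8% and 27%). Classes taken from clusters gave 37 in endothelial cells (48.9% of all genes) and 31 in fibroblasts (59.4%). With those classes Cox6b2 in endothelial cells turned to a log2 difference of 1.92.

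Leaving out each library, the injected minus uninjected member share ran from -0.520 to 0.0203 points in neutrophils, -0.602 to 0.119 in T and NK cells, -1.12 to 0.207 in endothelial cells and -1.91 to 0.0530 in mast cells. The class share ran from -0.147 to 0.0276 points in T and NK cells and from -0.00448 to 0.360 in mast cells. The mitochondrial-genome share ran from -0.909 to 1.80 points in keratinocytes, -0.250 to 0.0223 in neutrophils, -1.06 to 0.627 in macrophages, -0.753 to 0.283 in dendritic cells, -0.392 to 0.858 in T and NK cells, -0.241 to 1.28 in fibroblasts, -0.687 to 0.691 in endothelial cells and -1.15 to 0.481 in mast cells. In endothelial cells, where it was 0.00174, it also turned to -0.0553 in cells with up to 10% mitochondrial-genome UMIs, -0.00450 in cells of 1000 or more UMIs, -0.0826 with doublets kept and -0.133 with mitochondrial-genome and ribosomal UMIs out of the total. The log2 ratio of member to mitochondrial-genome UMIs ran from -1.86 to 0.14 in keratinocytes, -1.63 to 0.14 in neutrophils, -1.39 to 0.25 in macrophages, -1.17 to 0.14 in dendritic cells, -1.14 to 0.36 in T and NK cells, -1.29 to 0.54 in endothelial cells and -1.98 to 0.45 in mast cells. Uninjected 1 held 52 macrophages, 55 mast, 59 endothelial and 61 dendritic cells.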
